A study of Sus scrofa with 6 samples.

Results

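The 1553 transcripts described here are long non-coding RNAs (lncRNAs) of pig skeletal muscle that had no entry in the gene annotation, were classed as antisense, and reached an FPKM above 0.1 in at least 1 of 6 libraries. FPKM is the number of sequenced fragments per kilobase of transcript, scaled to the total of mapped fragments. The deposited tables listed 1576 unannotated antisense lncRNAs among 72511 transcripts, and 23 of them stayed at or below 0.1 in every library. The antisense class made up 12.5% of the 12437 unannotated lncRNAs above that level, against 63.8% for the intronic class (7935) and 23.7% for the intergenic class (lincRNAs, 2949). Members were thus selected on their class and on measured FPKM, so the minimum level itself is not a finding. The 3 members nearest above the level had a highest FPKM of 0.101, 0.102 and 0.105, and the 3 nearest below it had 0.0973, 0.0963 and 0.0952.

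The libraries came from longissimus thoracis (LT), a muscle of the back, and semitendinosus (ST), a muscle of the hind limb, of 3 Min pigs, a Chinese breed. Each muscle had 3 libraries, both muscles were sampled from the same pigs, and libraries with the same number in the labels (1, 2 or 3) were taken to come from 1 pig. The sources used here do not tie these numbers to animals in so many words. Values of a muscle are given in the order of pigs 1, 2 and 3, and coordinates are those of the deposited tables, on the pig genome build that the authors mapped to. All animals were labelled wild type, and the labels give no treatment. The samples were pieces of whole muscle, so a lower value can come from fewer cells of a type or from less RNA per cell, and these cannot be told apart. The tables hold FPKM and no read counts, so the depth behind each value is unknown from the files.

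An antisense lncRNA is transcribed from the opposite DNA strand to a protein-coding gene whose span it shares. Some antisense transcripts act on the gene they overlap, by changing its chromatin, interfering with its transcription or pairing with its RNA, while for most no function is known. Antisense transcripts often begin near the start of the overlapped gene, where many vertebrate promoters are transcribed in both directions, and skeletal muscle has known examples at its myosin heavy chain genes.

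The tissue label was checked against marker genes. Of 8 skeletal muscle fibre markers, 4 could be matched by symbol (MB, MYH1, MYH7 and TTN could not), and their summed FPKM was 14904, 14098 and 11658 across LT and 9432, 11099 and 9130.2 across ST, with the fast troponin T gene TNNT3 the most abundant at a mean of 4505. The LT sums were all above the ST sums. They rest on these 4 genes and are led by a fast-fibre gene, so they do not measure the fibre content as a whole. ACTA1, the skeletal muscle actin, overlapped between the muscles (values below). The 5 matched endothelial markers (of 6; PECAM1 the most abundant, VWF not matched) summed to 68.7, 43.3 and 52.2 across LT and to 160.8, 110.9 and 126.6 across ST. The 5 smooth muscle markers (RGS5 the most abundant) summed to 191.5, 168.6 and 161.4 across LT and to 328.2, 251.2 and 321.4 across ST. Both of these sums were higher in every ST library than in any LT library, and none of these markers was at 0. Their part in any difference between the muscles described below was not tested. The sums of adipocyte markers (6 of 6, CFD the most abundant; 172.3 to 338.8), fibroblast markers (6 of 6, COL3A1; 632.1 to 1346), immune markers (6 of 6, CSF1R; 10.6 to 18.3, LYZ at 0), Schwann cell markers (4 of 5, PMP22; 15.7 to 44.6) and red blood cell markers (4 of 5, HBB; 574.8 to 1049) overlapped between the muscles.

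The antisense lncRNAs had few exons and a median length between those of the lincRNAs and the intronic class. Their exon number ranged from 2 to 10 with a mean of 2.59, and 1033 of them (66.5%) had 2 exons, 298 had 3 and 117 had 4. Their length without introns ran from 201 to 30863 bases with a median of 629 (quartiles 347 and 1270). The median span on the chromosome, introns included, was 8969 bp. Intronic lncRNAs had a median of 4 exons, and 15.2% of them had 2, with a median length of 867 bases. LincRNAs resembled the antisense class in exon number, since 70.4% had 2 exons. They had a shorter median length of 547 bases and a shorter median span of 3986 bp. These class values are set side by side without a test, because transcripts of 1 locus share exons. In 25 antisense lncRNAs (1.61%) the introns summed to 50 bp or less. The same held for 5.36% of the lincRNAs and 0.0126% of the intronic class.

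The members lay on 1278 loci, that is gene identifiers, of which 1112 held 1 member and 166 held 2 or more, up to 12. A transcript of another class was present on 491 of the loci, an unannotated mRNA on 305, an intronic lncRNA on 267 and a lincRNA on 42. Chromosome 1 carried most members (152), followed by chromosomes 2 (139) and 6 (136). Relative to the number of annotated protein-coding genes above 0.1 on the same chromosome, chromosome 8 was the densest with 17.98 members per 100 genes, followed by chromosome 18 with 16.0, chromosome 1 had 12.5, chromosome 6 had 8.83, and chromosome X had the fewest with 7.62. Although the annotation used by the study lacked all of them, 320 members (20.6%) had at least 50% of their span within a lncRNA gene listed by RefSeq for the assembly Sscrofa11.1, as had 22.3% of the lincRNAs and 2.41% of the intronic class. The RefSeq list used here gives no strand, so these matches are by position.

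Every one of the 1553 members shared at least 1 bp of its span with an annotated protein-coding gene on the other strand. Exon positions were not analysed here, so sharing of span does not show that exons overlap. For 1345 members there was 1 such gene and for 208 there were 2 or more, up to 5. In 654 members (42.1%) the span also touched a protein-coding transcript model on the member's own strand, and for 103 of these that model was annotated. Where there were several genes on the other strand, the one with the highest FPKM, summed over its mRNA transcripts, was taken as the overlapped gene. This gave 1230 different genes, 1026 of them with a symbol. Annotated genes with an antisense lncRNA (1369, any overlap counted) had a median span of 43632 bp and a median summed FPKM of 2.55, and the other 18919 annotated genes had medians of 19212 bp and 0.799.

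The commonest position was a lncRNA lying entirely inside its gene (650 members, 41.9%). In 500 (32.2%) the 5′ ends overlapped, so that both transcripts began inside each other and pointed apart, in 297 (19.1%) the 3′ ends overlapped, and in 106 (6.83%) the whole gene lay inside the lncRNA. Members inside genes had the shortest spans (median 5080 bp), and 79.5% had 2 exons. Members with overlapping 3′ ends had a median span of 18642 bp, and 49.2% had 2 exons. The start of 278 members (17.9%) fell within 1000 bp of an annotated transcript start of the overlapped gene, and that of 85 within 200 bp. Of the members with overlapping 5′ ends, 45.2% started within 1000 bp. By contrast, 83 members (5.34%) ended within 1000 bp of an annotated end of the gene.

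**Figure D1:**
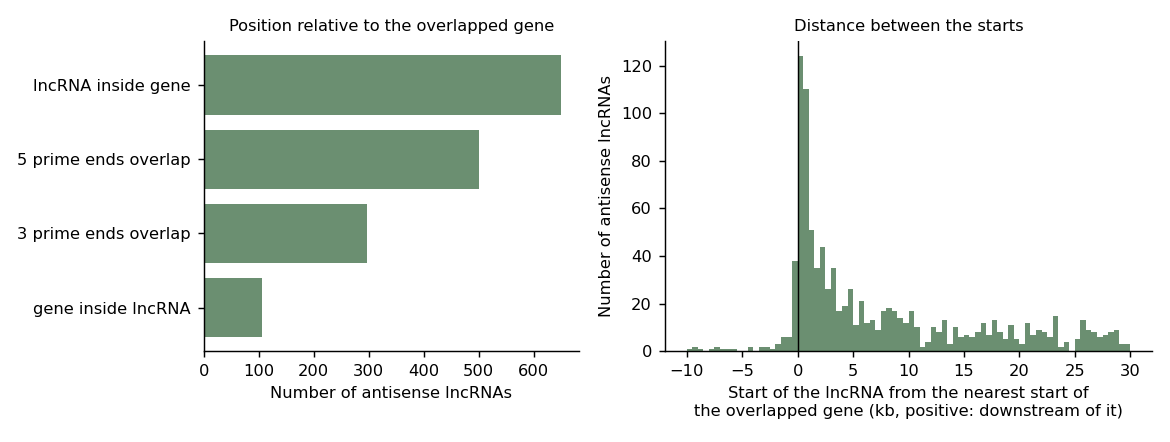
Left, number of antisense lncRNAs in each position relative to the overlapped gene on the other strand. Right, number of antisense lncRNAs by the distance in kb from the nearest annotated start of that gene to the start of the lncRNA, in bins of 0.5 kb between 10 kb upstream and 30 kb downstream, with a peak in the first 1 kb downstream of the start.

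Several genes carried many antisense transcripts. ADAMTS9, which encodes a secreted metalloprotease of the extracellular matrix, and the gene ENSSSCG00000047475 each carried 11, all from 1 locus per gene. The antisense transcripts of ADAMTS9 had 4 to 7 exons and mean FPKM from 0.0168 to 0.361. Summed over the 11, they reached 1.24, 1.44 and 1.14 FPKM across LT and 5.37, 1.36 and 1.69 across ST, so that the library of ST pig 1 stood above the others. ADAMTS9 itself was at 5.38, 4.81 and 3.08 across LT and 10.3, 12.9 and 6.84 across ST. GASK1B carried 7, HHATL carried 7, and EMILIN1, which encodes a glycoprotein of elastic fibres, carried 6. The transcript with most exons, LNC_000945 (chr1:201664987-201730578, minus strand), had 10 exons and 3688 bases and belonged to the locus opposite ENSSSCG00000047475. Its FPKM was 0.0717, 0.0127 and 0 across LT and 0.0769, 0.337 and 0.0729 across ST, with all ST values above all LT values (log2 fold change of ST over LT 0.93 ± 0.51 (SE), adjusted p = 0.612). The log2 fold change was 0.49 without ST pig 2, whose library held the highest value, and 0.17 and 2.36 with 1 and 0.01 in place of the 0.1 added to each FPKM. The longest transcript, LNC_002425 (chr13:26221569-26254529, plus strand), had 30863 bases in 4 exons and overlapped 933 bp at the start of HHATL, with FPKM of 0.129, 0.0966 and 0.0297 across LT and 0.0292, 0.724 and 0.107 across ST. Its value in ST pig 2 was above all others, and the values of the muscles overlapped.

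Levels were low in every library. The median member had a mean FPKM of 0.116 over the 6 libraries, the quartiles were 0.0683 and 0.207, and 40 members (2.58%) had a mean above 1. The median of the members within a library was 0.0970, 0.0850 and 0.0880 across LT and 0.0955, 0.0818 and 0.0903 across ST, and the number above 0.1 ran from 726 to 769. Neither measure separated the muscles. Intronic lncRNAs had a median of 0.148 and lincRNAs of 0.102, by the same minimum. Together the members held 0.860 to 0.994 of every 1000 FPKM in a library, with 347.8, 364.9 and 355.5 FPKM across LT and 399.7, 337.8 and 374.6 across ST. Mitochondrial transcripts took 5.90%, 5.36% and 8.16% of all FPKM across LT and 14.3%, 12.1% and 15.4% across ST, which bears on any level scaled to a library total. The most abundant member alone supplied 7.32% to 8.52% of that sum, and the 10 of highest mean supplied 18.1% to 22.9%.

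Detection was uneven between libraries. An FPKM above 0.1 was reached in 1 library only by 471 members (30.3%), in all 6 by 193 (12.4%), and in between by the rest. Of the intronic lncRNAs 25.2% were above 0.1 in all 6 libraries, and of the lincRNAs 9.63%. Both muscles had a library above 0.1 for 933 members, only LT for 312 (20.1%) and only ST for 308 (19.8%). Over all transcripts tested the last 2 shares were 9.85% and 11.8%, and over lincRNAs 22.0% and 25.8%. In 19 members (1.22%) all 3 LT libraries and no ST library were above 0.1, against 0.643% of all transcripts and 1.09% of lincRNAs, and in 12 (0.773%) the reverse was seen, against 0.781% and 1.15%. The spread between pigs within a muscle was large, with a median coefficient of variation of 173.2% for the 664 members with mean FPKM of 0.1 or less (the value that results when 1 of the 3 libraries is above 0), of 83.2% for those from 0.1 to 0.3, of 51.0% for those from 0.3 to 1 and of 37.0% for the 40 above 1.

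**Figure D2:**
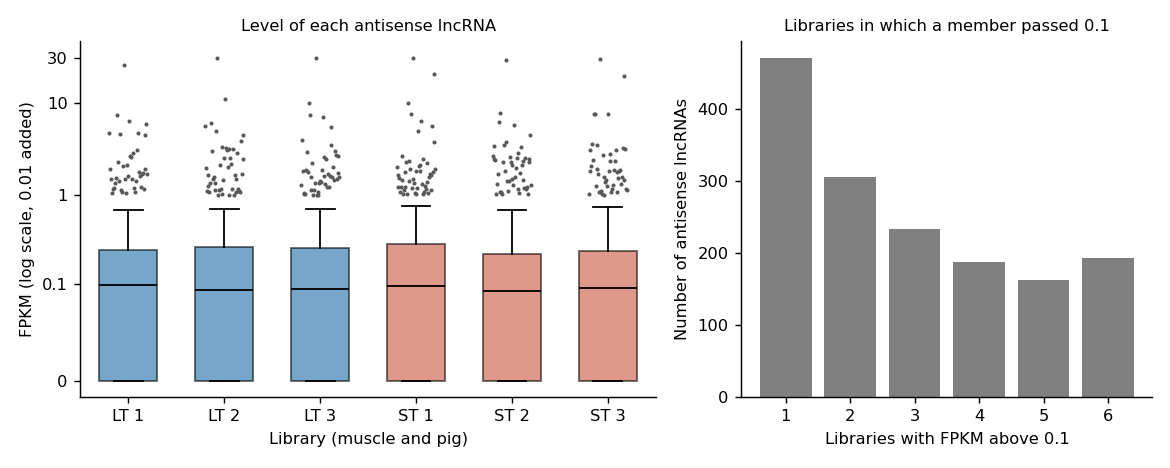
Left, FPKM of the 1553 antisense lncRNAs in each library on a log scale with 0.01 added (box, quartiles; line, median; whiskers, 5th and 95th percentiles; points, members above 1). Right, number of members by the number of libraries in which they passed 0.1. The medians of the 6 libraries lie between 0.0818 and 0.0970, and 471 members passed 0.1 in 1 library only.

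The overlapped genes were far more abundant than the antisense lncRNAs. Over the members, the median summed FPKM of the gene was 2.85, and a member's level was 4.66% of that of its gene at the median (quartiles 1.42% and 22.4%). Across the 1553 pairs Spearman's rho between the mean levels was 0.19. This is a description across pairs that share libraries, and 1 gene can enter several pairs. Members opposite genes of 100 FPKM or more (19) had a median FPKM of 0.231, those opposite genes from 10 to 100 (332) had 0.157, those from 1 to 10 (731) had 0.118 and those under 1 (471) had 0.0958. By position, members with overlapping 3′ ends had a median FPKM of 0.136, those with overlapping 5′ ends 0.126, those enclosing a gene 0.123 and those inside a gene 0.105. Opposite the 19 genes of 100 FPKM or more the median member stood at 0.0718% of its gene. The libraries kept the strand, and the part of any reads assigned to the wrong strand in these levels was not tested.

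In 229 pairs (14.7%) the lncRNA was above its gene, and in 63 it was so in all 6 libraries. The gene had a mean of 0.1 FPKM or less in 199 of the 229, and was listed at 0 throughout for 37 members. In 4 pairs the lncRNA exceeded a gene above 1 FPKM. These were LNC_005088, LNC_012232, LNC_003213 and LNC_006772, which are also the 4 most abundant members.

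**Figure D3:**
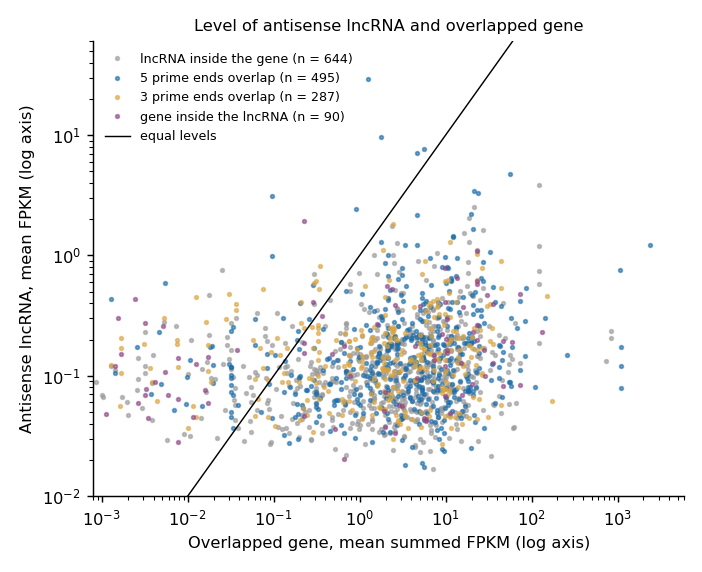
Mean FPKM of each antisense lncRNA over 6 libraries against the mean summed FPKM of its overlapped gene, both on log axes, coloured by position; the 37 members whose gene is listed at 0 are left out. Most points lie below the line of equal levels, and the median lncRNA is at 4.66% of its gene.

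LNC_005088 was the most abundant antisense lncRNA (chr17:39322202-39327339, minus strand). It had 5118 bases in 2 exons separated by only 20 bp, and whether this gap is an intron was not tested. Its FPKM was 25.5, 30.6 and 30.3 across LT and 30.4, 28.8 and 29.8 across ST, and its 5′ end shared 713 bp with ENSSSCG00000007314, at whose position RefSeq lists EPB41L1, a gene of the membrane skeleton. RefSeq also lists a non-coding gene, LOC110257452, at its place. The 6 values lay close together, and those of LT and ST overlapped (log2 fold change of ST over LT 0.05 ± 0.17 (SE), adjusted p = 0.937). The overlapped gene was at 1.06, 1.14 and 0.785 across LT and 1.76, 1.34 and 1.42 across ST.

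LNC_012232 (chrX:83223692-83224710, plus strand) began in the first part of ARMCX2, an armadillo repeat gene of the X chromosome. Its FPKM was 5.8, 4.47 and 2.65 across LT and 20.4, 4.41 and 19.5 across ST. ST pigs 1 and 3 were high, while ST pig 2 lay among the LT values, so that the values of the muscles overlapped (log2 fold change of ST over LT 1.54 ± 0.64 (SE), adjusted p = 0.515). ARMCX2 was at 2.04, 1.5 and 0.903 across LT and 2.57, 1.25 and 2.45 across ST.

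LNC_003213 (chr13:206111362-206123990, minus strand) lay opposite ENSSSCG00000021991, where RefSeq lists NDUFV3, a subunit of respiratory complex I. Its FPKM was 7.35, 6.04 and 7.27 across LT and 9.84, 7.65 and 7.48 across ST, and the gene was at 4.64, 4.85 and 4.42 across LT and 6.73, 5.1 and 7.96 across ST. All ST values were above all LT values, by a small margin (log2 fold change of ST over LT 0.26 ± 0.22 (SE), adjusted p = 0.724). LNC_006772 (chr3:112046173-112055392, plus strand) shared 265 bp with the start of EMILIN1 and was at 6.36, 11 and 7.03 across LT and 4.89, 5.68 and 7.59 across ST, next to 4.77, 5.37 and 4.5 across LT and 4.44, 4.76 and 4.28 across ST for EMILIN1 itself. The values of the lncRNA overlapped between the muscles (log2 fold change of ST over LT -0.40 ± 0.30 (SE), adjusted p = 0.724).

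LNC_003101 (chr13:133969469-133971623, minus strand) covered the start of TFRC, the transferrin receptor that takes up iron. Its FPKM was 1.54, 1.36 and 9.91 across LT and 2.25, 6.11 and 7.56 across ST, and that of TFRC was 38.7, 17.1 and 13.7 across LT and 104, 40.3 and 126 across ST. The lncRNA was highest in LT pig 3, where TFRC was lowest, while TFRC was highest in ST pig 3, where the lncRNA was at 7.56. LNC_004358 (chr15:79332005-79337198, minus strand) lay inside MAP3K20, a kinase of the stress response, and was at 4.58, 1.56 and 2.2 across LT and 7.6, 3.5 and 3.5 across ST. LNC_009348 (chr6:59720942-59724139, minus strand) lay inside the zinc finger gene ZNF524 and was at 3.06, 2.15 and 3.45 across LT and 2.43, 1.73 and 2.31 across ST. In these 3 members LT and ST values overlapped. Within pigs, LNC_004358 was higher in ST in all 3, LNC_009348 was lower in ST in all 3, and LNC_003101 differed in direction between pigs. LNC_009528 (chr6:91968145-91973454, minus strand), opposite ENSSSCG00000042910, where RefSeq lists AGO4 of the Argonaute family, was at 4.66, 3.17 and 5.5 across LT and 0, 3.32 and 3.1 across ST, and LNC_011224 (chr9:124215833-124230200, plus strand), opposite SHCBP1L, was at 4.51, 0 and 2.99 across LT and 5.52, 2.27 and 3.25 across ST. Each was listed at 0 in 1 library and above 2 in the others, and LNC_011224 was higher in ST in all 3 pigs. These last transcripts are short, with 226 and 255 bases.

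Over the antisense lncRNAs, the 2 muscles of a pig resembled each other more than 1 muscle did between pigs. Pearson's r of log2(FPKM + 0.1) across the 1553 members was 0.485 to 0.521 for the 3 pairs of libraries from 1 pig, 0.414 to 0.482 for the 6 pairs from 1 muscle, and 0.389 to 0.416 for the 6 pairs that shared neither. Each of the 6 libraries correlated best with the other muscle of its own pig. In the intronic class this held for 0 of 6 libraries, and in lincRNAs and mRNAs for 1 of 6. There the mean r within a muscle was the higher (0.688 against 0.681 in intronic lncRNAs, 0.508 against 0.488 in lincRNAs, 0.844 against 0.834 in mRNAs). These correlations describe libraries, the transcripts in them are not independent, and whether the libraries of a pig were also prepared together is not given in the sources used here. Over the 193 members above 0.1 in all 6 libraries the order was nearly lost (0.749 within a pig, 0.746 within a muscle, 1 of 6 libraries closest to its own pig).

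**Figure D4:**
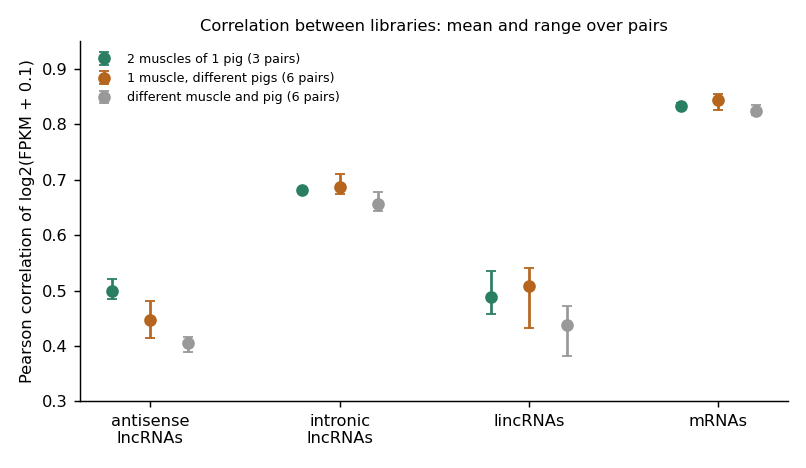
Pearson correlation of log2(FPKM + 0.1) between libraries, across transcripts of each class (points, mean over pairs; bars, lowest and highest pair). In antisense lncRNAs the 3 pairs from 1 pig, at 0.485 to 0.521, lie above the 6 pairs from 1 muscle, at 0.414 to 0.482.

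Of the 306 members above 0.1 in exactly 2 libraries, those 2 came from the same pig in 89 (29.1%), and from the same muscle in 118 (38.6%). Over all transcripts tested the shares were 22.6% and 45.2%, over intronic lncRNAs 21.4% and 44.7%, and over lincRNAs 27.5% and 46.6%, so that the share from the same pig was close to that of lincRNAs. Some of the most abundant of the 89, chosen after their values were seen, are given as examples. LNC_005241 (chr18:19789188-19796214, plus strand), overlapping the 3′ end of CCDC136, was at 0, 1.13 and 0 across LT and 0, 3.77 and 0 across ST, and was thus seen in both muscles of pig 2 alone. LNC_005548 (chr2:15280660-15318308, plus strand), inside NR1H3, the liver X receptor gene of lipid metabolism, was at 0, 0 and 1.01 across LT and 0, 0 and 2.72 across ST, in pig 3 alone. LNC_008899 (chr6:88440614-88452644, plus strand), at the start of the phosphatase gene PTP4A2, was at 1.07, 0 and 0 across LT and 0.72, 0 and 0 across ST, in pig 1 alone. LNC_005703 (chr2:72703989-72725066, plus strand), which encloses CLPP, a mitochondrial protease gene, was at 0, 0.0177 and 1.42 across LT and 0.0119, 0.016 and 1.01 across ST. The overlapped genes were above 0 in all 6 libraries. NR1H3 was at 6.85, 7.88 and 6.46 across LT and 8.38, 3.88 and 1.7 across ST, PTP4A2 at 164, 165 and 202 across LT and 83.7, 118 and 119 across ST and CLPP at 8.71, 9.37 and 10.9 across LT and 9.28, 9.33 and 11.8 across ST.

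To ask which antisense lncRNAs differ between ST and LT, all 52102 transcripts above 0.1 in at least 1 library were fitted with limma on log2(FPKM + 0.1). To be called, a transcript needed a Benjamini-Hochberg adjusted p under 0.05 together with a log2 fold change beyond 1 in either direction. No antisense lncRNA was called (0 of 1553; lowest adjusted p 0.137), where 0.146% of all transcripts were (76). At an unadjusted p under 0.05, 101 members passed, and 91 of these also changed by more than 1 on the log2 scale (the unadjusted rule; 5.86% of the members, against 6.95% of all transcripts). Of the 91, 52 were higher in ST (3.35%, against 4.12% of all) and 39 were lower (2.51%, against 2.84%). After quantile normalization the split was 42 higher and 53 lower, and after scaling to the same nuclear sum it was 60 and 35. A share at or under that of all transcripts is no result about the members. LT and ST values were fully separate in 167 members (10.8%), against 16.3% of all transcripts, 88 of them higher and 79 lower in ST. The median log2 fold change of the members was -0.04, beside 0.09 for all transcripts. Of the 91, 24 were listed at 0 in all libraries of a muscle, and 6 had a mean FPKM above 1. With 3 libraries against 3, an exact two-sided permutation test of a single member cannot give a p below 0.1. The pseudocount is large beside most members, and with a pseudocount of 1 the 91 fell to 2 (0.129% of the members, against 2.40% of all transcripts).

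The members named next had the smallest unadjusted p among those with separate LT and ST values and the same direction in all 3 pigs. None passed the adjusted threshold, and their values are given as measured. The size of a fold change of such low members is set largely by the pseudocount of 0.1. With pseudocounts of 1 and 0.01 the log2 fold change was 0.34 and 4.04 for LNC_004044, 0.52 and 3.53 for LNC_010753, -0.39 and -4.33 for LNC_006205, -0.40 and -3.20 for LNC_001529 and -0.76 and -3.94 for LNC_004373, while for the more abundant LNC_000127 it was -0.86 and -1.14. LNC_007572 (chr4:2844988-2848778, minus strand) lay inside PTK2, which encodes focal adhesion kinase. It had 2 exons and 417 bases, and its FPKM was 0.415, 0.532 and 0.282 across LT and 0, 0 and 0 across ST. It was detected in every LT library and listed at 0 in every ST library (limma, adjusted p = 0.137), while PTK2 was at 16.5, 15.2 and 18.6 across LT and 13.4, 14.8 and 12 across ST (log2 fold change -0.32 ± 0.17, adjusted p = 0.355). LNC_005334 (chr18:55613524-55617975, plus strand), overlapping the 3′ end of the zinc finger gene ZNF777, was at 0.232, 0.31 and 0.132 across LT and 0, 0 and 0 across ST (limma, adjusted p = 0.268). LNC_003630 (chr14:9197280-9199059, minus strand), at the start of DOCK5, an exchange factor for Rac, was at 0.4, 0.247 and 0.134 across LT and 0, 0 and 0 across ST (limma, adjusted p = 0.271). LNC_006341 (chr2:141237430-141246334, minus strand), at the start of PAIP2, a repressor of translation, was at 0.141, 0.488 and 0.247 across LT and 0, 0 and 0 across ST (limma, adjusted p = 0.279). These 4 share the pattern of LT values above 0 and ST values listed at 0. Over all 1553 members, 11 had this pattern and 17 had the reverse. Over all 52102 transcripts tested the numbers were 191 and 257, over the 2949 lincRNAs 27 and 37, and over the 7935 intronic lncRNAs 36 and 64. The pattern was thus not particular to the antisense class. DOCK5 was at 0.436, 0.377 and 0.432 across LT and 0.553, 0.743 and 0.382 across ST, and PAIP2 at 93.2, 56.5 and 111 across LT and 117, 54.6 and 67 across ST.

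Among members listed above 0 in both muscles, LNC_000127 (chr1:57417617-57424114, plus strand) had by far the highest level of the 10. LNC_001529 and LNC_006205, given below, were above 0.1 in LT libraries alone. It had 2 exons and 579 bases, and 99.2% of its span lay inside RRAGD, a Rag GTPase that signals amino acid supply to mTORC1. Its FPKM was 4.67, 5.56 and 3.98 across LT and 1.99, 2.65 and 1.81 across ST. Every LT library was above every ST library (limma, log2 fold change of ST over LT -1.11 ± 0.26 (SE), adjusted p = 0.28). RRAGD, in the same libraries, was at 23.2, 32.1 and 23.2 across LT and 15.3, 19.8 and 15.1 across ST (log2 fold change -0.64 ± 0.21, adjusted p = 0.158). LNC_001529 (chr11:16048005-16084004, plus strand), with 5 exons and its 3′ end in that of WDFY2, an endosomal protein gene, was at 0.382, 0.348 and 0.432 across LT and 0, 0.0827 and 0.0757 across ST (limma, log2 fold change of ST over LT -1.72 ± 0.40 (SE), adjusted p = 0.269). LNC_006205 (chr2:79649802-79670314, minus strand) was at 0.253, 0.231 and 0.515 across LT and 0, 0.0308 and 0 across ST (limma, log2 fold change of ST over LT -1.93 ± 0.41 (SE), adjusted p = 0.256), and its overlapped gene ENSSSCG00000044183 was listed at 0 in 5 libraries.

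The 2 members of the 10 that were higher in ST were LNC_010753 and LNC_004044. LNC_010753 (chr8:31896070-31920335, minus strand), inside NSUN7, a gene of the RNA methyltransferase family, was at 0.0138, 0.111 and 0.0186 across LT and 0.372, 0.501 and 0.645 across ST (limma, log2 fold change of ST over LT 2.07 ± 0.42 (SE), adjusted p = 0.239). NSUN7 itself was at 0.0107, 0.0213 and 0.019 across LT and 0.0346, 0.0525 and 0.0546 across ST, below the lncRNA in ST. LNC_004044 (chr15:46213207-46236073, plus strand), whose 3′ end shared 71 bp with that of CFAP97, was at 0, 0.0416 and 0 across LT and 0.175, 0.327 and 0.357 across ST (limma, log2 fold change of ST over LT 1.75 ± 0.40 (SE), adjusted p = 0.268). The remaining member of the 10, LNC_004373, is described with the HOX genes.

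**Figure D5:**
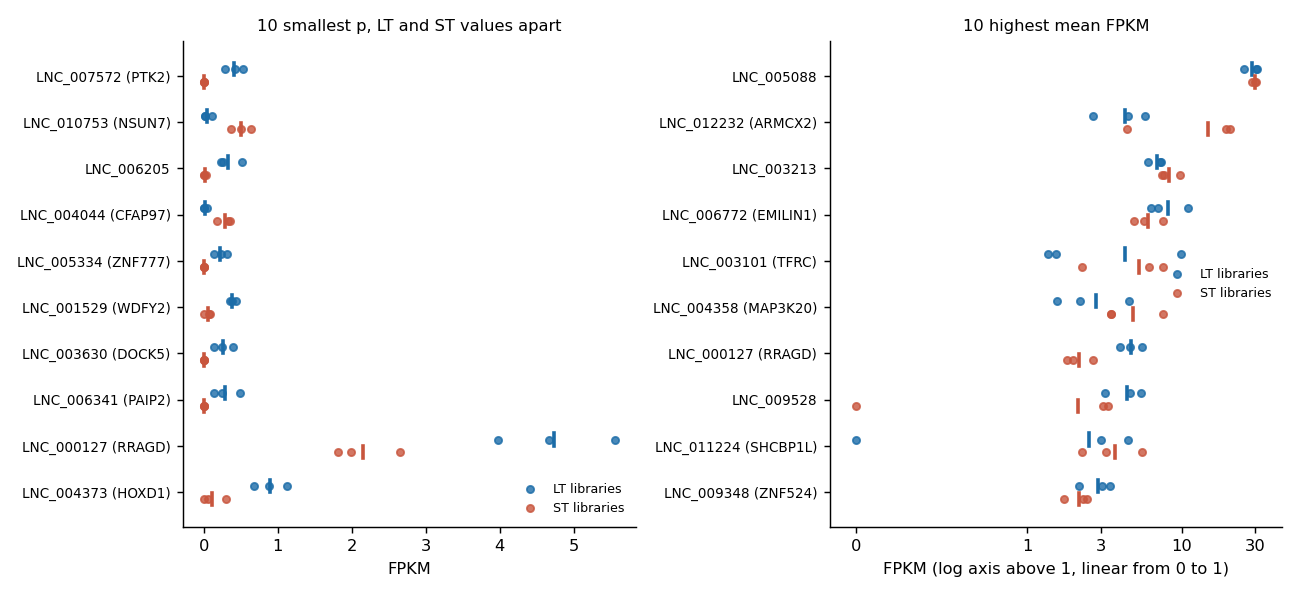
FPKM of single antisense lncRNAs in each library (points; blue, LT; red, ST; bars, mean of 3), with the overlapped gene in brackets where it has a symbol. Left, the 10 with the smallest unadjusted p among members whose LT and ST values do not overlap; right, the 10 of highest mean, with a log axis above 1, led by LNC_005088 at 25.5 to 30.6 in all libraries.

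The overlapped genes were compared in the same way, with FPKM summed over the mRNA transcripts of each of 19672 genes. Of 1088 overlapped genes tested, 12 were called (1.10%, against 0.574% of all genes), 8 higher and 4 lower in ST. This count rested on the fit and on single libraries. With the pig as a block it was 71 (6.53%, against 4.06% of all genes), without ST pig 2 it was 61 (5.61%, against 3.92%), without LT pig 1 or LT pig 2 it was 0, without LT pig 3 it was 1, and without ST pig 1 or ST pig 3 it was 2. The 12 genes carried 14 antisense lncRNAs, and 3 of these passed the unadjusted rule (21.4%, against 6.95% of all transcripts and 5.86% of all members). The lncRNA and its gene were measured in the same libraries, so their values are given side by side and not as independent evidence.

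HOXD8, a homeobox gene of body patterning, was at 31.3, 34.1 and 45.9 across LT and 4.04, 5.71 and 2.99 across ST (log2 fold change -3.12 ± 0.27, adjusted p = 0.00505). Its antisense transcript LNC_004366 (chr15:81930495-81933212, minus strand) was at 0.1, 0.234 and 0.0809 across LT and 0, 0.0315 and 0 across ST (limma, log2 fold change of ST over LT -1.07 ± 0.40 (SE), adjusted p = 0.483). MSS51, a skeletal muscle gene linked to mitochondrial metabolism, was at 60.9, 86.1 and 80.8 across LT and 15.6, 4.71 and 4.43 across ST (log2 fold change -3.43 ± 0.45, adjusted p = 0.0304). It carried 3 antisense lncRNAs on 1 span, of which LNC_003459 (chr14:76304340-76311852, plus strand) was at 0.256, 0.241 and 0.0533 across LT and 0.00427, 0.0249 and 0 across ST (limma, log2 fold change of ST over LT -1.28 ± 0.46 (SE), adjusted p = 0.466), LNC_003458 at 0.256, 0.349 and 0.106 across LT and 0.055, 0.0716 and 0.241 across ST and LNC_003457 at 0.0391, 0.148 and 0.171 across LT and 0.0843, 0.0922 and 0.171 across ST. The LT and ST values of LNC_003459 were apart and those of the other 2 overlapped. NNT, the mitochondrial transhydrogenase gene, was at 54.9, 55.1 and 50.01 across LT and 161, 119 and 213 across ST (log2 fold change 1.58 ± 0.24, adjusted p = 0.0408), and LNC_004676 (chr16:28142192-28187453, minus strand) was listed at 0 in LT and was at 0.0481, 0.317 and 0.118 in ST (limma, adjusted p = 0.482). PRKG1, the cGMP-dependent kinase of smooth muscle, was at 7.02, 3.27 and 7.32 across LT and 24.4, 45.6 and 33.4 across ST (log2 fold change 2.57 ± 0.35, adjusted p = 0.0367), and LNC_003507 (chr14:98792080-98802244, plus strand) at 0.384, 0.269 and 0.271 across LT and 0.499, 0.643 and 0.729 across ST (limma, log2 fold change of ST over LT 0.83 ± 0.32 (SE), adjusted p = 0.5). Here too all ST values of the lncRNA were above all LT values. The smooth muscle marker sum, given above, was also higher in ST, and its part in these differences was not tested.

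Over the other called genes the antisense values overlapped between the muscles. PTPRB, a phosphatase of endothelial cells, was at 7.63, 6.1 and 7.64 across LT and 18.9, 16.2 and 16.9 across ST (log2 fold change 1.28 ± 0.17, adjusted p = 0.0365), beside the endothelial marker sums given above, whose part in this was not tested. Its antisense transcript LNC_008010 (chr5:34751726-34811980, plus strand) was at 0, 1.99 and 1.31 across LT and 0, 2.52 and 2.78 across ST, listed at 0 in both libraries of pig 1 and above 1 in those of pigs 2 and 3 (limma, log2 fold change of ST over LT 0.45 ± 1.67 (SE), adjusted p = 0.938). SLC2A5, the fructose transporter, was at 1.35, 0.993 and 1.39 across LT and 18.7, 10.4 and 14.8 across ST, and LNC_008817 was above 0 in ST pig 3 alone (0.211). SPRY4, an inhibitor of growth factor signalling, was at 0.274, 0.362 and 0.185 across LT and 2.98, 2.11 and 2 across ST, and LNC_005868 at 0.0424, 0.305 and 0 across LT and 0.0588, 0.102 and 0.0685 across ST. EPAS1, a transcription factor of the hypoxia response, was at 18, 16.6 and 17.3 across LT and 40.6, 33.1 and 39 across ST, and LNC_006720 at 0, 0 and 0.062 across LT and 0.251, 0 and 0 across ST. For DPP4, SUSD1, FGG and ENSSSCG00000028777 the antisense values ranged from 0 to 0.351.

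Genes of muscle pathways were taken from 7 lists. The lists were drawn up with earlier results of these data known, and are described by counts. Of 237 list genes found in the files, 27 (11.4%) were overlapped by an antisense lncRNA, against 7.75% of the 14657 annotated genes with a symbol. Over all genes 0.574% were called, and by the unadjusted rule 4.62% were higher and 2.48% lower in ST. Of 37 sarcomere genes tested, 3 were called (all higher in ST), 15 were higher and 8 lower by the unadjusted rule, and 3 carried 5 antisense lncRNAs. Of 28 glycolysis and glycogen genes, none was called by limma, 1 was higher and 18 were lower in ST by the unadjusted rule, and 4 carried 5. Of 36 genes of fatty acid and oxidative metabolism, 4 were called (all higher), 20 were higher and 0 lower by the unadjusted rule, and EPAS1 carried 1. Of 21 calcium handling genes, 1 was called (lower), 1 was higher and 3 were lower by the unadjusted rule, and PPP3CA carried 1. Of 29 adipogenesis and lipid storage genes, none was called by limma, 3 were higher and 1 was lower by the unadjusted rule, and 6 carried 6. Of 31 myogenic regulators, none was called by limma, 0 were higher and 5 lower by the unadjusted rule, and 6 carried 7. Of 47 limb and trunk patterning genes, 9 were called (2 higher, 7 lower), 13 were higher and 9 lower by the unadjusted rule, and 6 carried 11. The calls on the lists (17) rested on the fit and on single libraries. They were 8 without a variance trend, 9 without the FPKM filter, 11 after quantile normalization and 21 after scaling to the same nuclear sum. They were 0 without LT pig 1, 1 without LT pig 2, 5 without LT pig 3, 6 without ST pig 1, 80 without ST pig 2 and 8 without ST pig 3, and 63 with the pig as a block. The calls over all genes moved alike, from 113 to 0, 1, 8, 11, 771 and 17 without these libraries in the same order and to 799 with the block. Of the 36 antisense lncRNAs on these lists, 4 passed the unadjusted rule (where 6.95% of all transcripts did), 3 of the 11 on the patterning list and 1 of the 7 on the myogenic list.

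Among the contractile genes, ACTA1, the skeletal muscle actin, was at 2452, 3025 and 1811 across LT and 2899, 1768 and 2415 across ST. LNC_003795 (chr14:60386464-60412721, minus strand) shared 51 bp with its start and was at 0.607, 2.98 and 0.64 across LT and 0.737, 1.07 and 1.26 across ST, with LT pig 2 above all other libraries (log2 fold change of ST over LT -0.09 ± 0.62 (SE), adjusted p = 0.967). TNNI1, the slow-fibre troponin I, carried 3 antisense lncRNAs. The most abundant of these, LNC_001221 (chr10:23800987-23804996, plus strand), was at 0.00129, 0 and 0 across LT and 0.738, 0 and 0.305 across ST, and TNNI1 at 587, 368 and 383 across LT and 2325, 387 and 2494 across ST. Both were highest in ST pigs 1 and 3. For this lncRNA the log2 fold change was 1.69 ± 0.78 (SE; limma, adjusted p = 0.543). The other two had other patterns. LNC_001220 was at 0.127, 0 and 0.113 across LT and 0, 0.214 and 0.0171 across ST, highest in ST pig 2, and LNC_001222 was at 0, 0.143 and 0.119 across LT and 0, 0.00329 and 0.455 across ST, highest in ST pig 3 and listed at 0 in ST pig 1. In calcium handling, LNC_010891 (chr8:119426941-119429033, minus strand) began near the start of PPP3CA, a catalytic subunit of calcineurin, and was at 0.75, 0.379 and 0.457 across LT and 0.614, 0.454 and 0.638 across ST, without separation of the muscles.

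In glycolysis, LNC_005588 (chr2:40824159-40845651, plus strand) overlapped the start of LDHA, the lactate dehydrogenase subunit of fast muscle. It was at 0.932, 1.03 and 1.08 across LT and 0.526, 0.76 and 0.255 across ST, with every LT value above every ST value (limma, log2 fold change of ST over LT -0.95 ± 0.39 (SE), adjusted p = 0.515). LDHA was at 2092, 2672 and 935 across LT and 194, 411 and 70.7 across ST (log2 fold change -3.28 ± 0.65, adjusted p = 0.0665). ST pig 3 was lowest for both, while within LT pig 3 was highest for the lncRNA and lowest for LDHA. LNC_003169 (chr13:173629767-173635015, minus strand), at the start of GBE1, the glycogen branching enzyme, was at 0.21, 0.487 and 0.261 across LT and 1.02, 0.36 and 0.647 across ST, and GBE1 at 14.5, 6.44 and 13.5 across LT and 36.4, 20.4 and 40.7 across ST. The values of the lncRNA overlapped between the muscles, and those of GBE1 did not. Of the lipid genes, CEBPD, a transcription factor of early adipogenesis, lay whole inside LNC_007695 (chr4:79829996-79874558, minus strand), which was at 0.141, 0.206 and 0.523 across LT and 0.319, 0.82 and 0.372 across ST. LNC_002388 (chr12:60741350-60742997, minus strand), inside SREBF1, the regulator of fatty acid synthesis, was at 0.268, 0.176 and 0.0762 across LT and 0.288, 0.453 and 0 across ST. Neither separated the muscles.

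Among the homeobox genes, HOXD1 was at 0.725, 1.38 and 1.77 across LT and 0.0285, 0.242 and 0 across ST (log2 fold change -3.01 ± 0.51, adjusted p = 0.0553). LNC_004373 (chr15:81973838-81987782, minus strand), with 3517 bases, shared 31 bp with the start of HOXD1. Its FPKM was 0.677, 0.88 and 1.12 across LT and 0, 0.299 and 0.0519 across ST, and every LT value was above every ST value (limma, log2 fold change of ST over LT -2.42 ± 0.57 (SE), adjusted p = 0.285). The other two antisense lncRNAs of HOXD1 were above 0 in LT libraries alone, LNC_004371 in those of pigs 1 and 2 and LNC_004372 in that of pig 2. HOXA3 carried 4 antisense lncRNAs. LNC_005409 (chr18:45451261-45455480, minus strand) was at 0.259, 0.184 and 0.0641 across LT and 0.273, 0.208 and 0.415 across ST, and LNC_005412 (chr18:45461532-45463861, minus strand), inside the gene, was at 0.162, 0.304 and 0.239 across LT and 0, 0.0548 and 0.0633 across ST. The values of the first overlapped between the muscles and were higher in ST in all 3 pigs, and in the second LT was above ST in every library (log2 fold change -1.28 ± 0.40, SE; limma, adjusted p = 0.416). HOXA3 itself was at 0.125, 0.103 and 0.246 across LT and 0.24, 0.116 and 0.315 across ST, with overlap between the muscles and the higher value in ST in all 3 pigs. LNC_005410 was above 0 in ST pig 1 alone, and LNC_005411 in both libraries of pig 3 alone.

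Opposite the myogenic regulators, LNC_008081 (chr5:67193493-67200446, plus strand), of 6254 bases, shared 851 bp with the start of TEAD4, a factor of the Hippo pathway, and was at 0.658, 0 and 0.028 across LT and 0.612, 0 and 0.00455 across ST. It was high in both libraries of pig 1 and below 0.03 in the others, while TEAD4 was at 3.78, 3.06 and 3.26 across LT and 5.16, 3.59 and 6.3 across ST. SOX6, a repressor of slow-fibre genes, carried LNC_006058 (chr2:42540098-42574450, minus strand) at 0.392, 0.155 and 0.152 across LT and 0, 0.0855 and 0 across ST and LNC_006059 (chr2:42812936-42874596, minus strand) at 0.341, 0.123 and 0.0623 across LT and 0.169, 0.252 and 0.0341 across ST. For the first, LT was above ST in every library (log2 fold change -1.36 ± 0.47, SE; limma, adjusted p = 0.454), and SOX6 itself was at 14, 16.6 and 15.8 across LT and 4.69, 14.6 and 4.03 across ST.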

How the data were processed

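The study sequenced rRNA-depleted, strand-specific RNA libraries from LT and ST of 3 pigs. The authors mapped reads with HISAT2 (genome Sus scrofa 11.1), built transcript models in StringTie, kept those that coding-potential programs called non-coding, and deposited FPKM per transcript, with class, span, strand and exon number. Read counts were not used here. Members were classed by the deposited labels. Spans sharing at least 1 bp on opposite strands were paired, and gene FPKM was summed over mRNA transcripts. Symbols matched 14657 of 20288 annotated protein-coding genes. ST and LT were compared with limma 3.58.1 (R 4.3.3) with a variance trend on log2(FPKM + 0.1), without a block, and Benjamini-Hochberg adjustment. On data simulated for this comparison (52102 transcripts, 200 changed by 4 on the log2 scale), 86 changes were recovered with 3 other calls. Both muscles were taken from 3 pigs by the study's methods. Same-numbered libraries were taken as 1 pig from the number shared in their labels, and their residuals correlated at 0.07 to 0.09 over transcripts and 0.26 to 0.29 over genes. Named members were every called member, the 10 smallest p with separate values and 1 direction in all pigs, the 10 highest means, 2 per pathway list, the longest and that with most exons, 1 per locus. Some of these are not reported here. Members and lists were chosen with earlier results of these data known. Alternatives changed pseudocount, filter, scaling, variance trend, block, single libraries and the choice of gene.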

Additional observations from a re-analysis of the deposited data

How the results depend on the processing

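No antisense lncRNA was called by limma under any of the 14 alternatives. The number past the unadjusted rule was 91, 82 with the replicate block, 80 to 107 without single libraries, and 2 with a pseudocount of 1. Higher and lower members numbered 45 and 61 without LT pig 1, 33 and 47 without LT pig 2 and 37 and 53 without LT pig 3, against 52 and 39. The number of overlapped genes called (12) was 71 with the replicate block, 22 after scaling to the same nuclear sum, 7 after quantile normalization, 3 without the FPKM filter, 3 without a variance trend, and 0 to 61 without single libraries. The median FPKM (0.116) was 0.188 with a mean FPKM above 0.1, 0.121 in LT libraries alone and 0.122 in ST libraries alone. The median ratio to the gene (0.0466) was 0.0588 against its most abundant transcript and 0.0530 against the gene of longest overlap; causes were not tested. Of 30 named members, 22 kept their direction in all alternatives run. The other 8 turned when single libraries were left out. LNC_002388 ran from -0.41 to 0.82 and turned without LT pig 3, ST pig 1 or ST pig 2 and with pseudocount 0.01 (-0.56). LNC_002425 ran from -0.14 to 1.20 and turned without ST pig 2. LNC_003795 ran from -0.46 to 0.60 and turned without LT pig 2 or ST pig 1 and with same nuclear sum (0.0095). LNC_005088 ran from -0.038 to 0.094 and turned without LT pig 1. LNC_006720 ran from -0.23 to 0.67 and turned without ST pig 1. LNC_008081 ran from -1.06 to 0.79 and turned without LT pig 1, ST pig 2 or ST pig 3. LNC_010891 ran from -0.053 to 0.36 and turned without LT pig 2. LNC_011224 ran from -0.089 to 2.67 and turned without LT pig 2. With 1 direction throughout, the log2 fold change of LNC_003213 was 0.14 without ST pig 1, that of LNC_006772 was -0.17 without LT pig 2 and that of LNC_005588 was -0.60 without ST pig 3. The correlation within pigs minus that within muscles, over alternatives chosen after seeing the data, was 0.00330 to 0.0810, against 0.0538. FPKM without counts gives no limit of detection, and most members lie near 0.1.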
